A study of Mus musculus with 24 samples.

Results

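Fatty acid and triglyceride synthesis genes were followed in mouse liver across feeding state and across loss of Gpt2, the gene of alanine transaminase 2. The set was 32 named genes, matched by symbol, of 41388 genes in the count files, and 31 of them held enough reads to be tested among 16757 tested genes. Pnpla5 had 0 reads in every library used and was not tested. The liver makes fatty acids from citrate exported by mitochondria, which is split to acetyl-CoA, carboxylated to malonyl-CoA and joined into palmitate with reducing power from NADPH. Palmitate is then desaturated and elongated, and acyl chains are placed on a glycerol backbone to make triglyceride. In the fed state insulin and glucose drive this programme through the transcription factors SREBP-1c (from Srebf1) and ChREBP (from Mlxipl), and fasting turns it down.

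The labels name 4 groups of 6 liver libraries. Controls have fl/fl in their titles, a floxed genotype, and the series text calls them wild type. The knockout, named LSALT2KO in the labels, lacks alanine transaminase 2 specifically in liver. Each genotype had free access to food or had been fasted for 18 h. Every title carries the letter M, whose meaning the labels do not give, and nothing used here gives the Cre driver, strain or age. Whether the libraries stem from separate animals is not stated in the labels, and p-values therefore cover the spread between these samples only. The damaged file of control fed replicate 6 and the kidney-like library of control fasted replicate 4 were left out. This gave 22 libraries: 5 control fed, 5 control fasted, 6 knockout fed and 6 knockout fasted.

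The libraries held 18.4 to 55.3 M reads assigned to genes. Levels are CPM, reads of a gene per M assigned reads (M for mega) after scaling between libraries by the TMM method. The targeted gene Gpt2 was at 307 to 447 CPM in control fed, 557 to 795 in control fasted, 48.3 to 78 in knockout fed and 52.1 to 148 in knockout fasted libraries, so that the genotypes did not overlap. Summed CPM of 7 hepatocyte markers lay between 68300 and 153000 in all 22 libraries. Summed CPM of 9 kidney tubule markers was at most 3.93 in 20 of the 22 libraries, 6.06 in control fasted replicate 2 and 23.2 in control fasted replicate 5. Adipocyte markers, 8 genes that could bring in lipid synthesis transcripts from fat, summed to 4.41 to 13.8 CPM with overlapping ranges in all groups. Adrb3 was at 3.27 to 13.7 CPM and made most of this sum in every library except control fed replicate 3. Of the other adipocyte genes, Adipoq reached 1.29 CPM, Lep 0.0225 and Plin1 0.58. Control fed replicate 3 held Cfd at 4.55 CPM, Retn at 1.05 and Adipoq at 1.09, and its part in the results was not tested beyond leaving it out. In whole tissue, fewer cells of a type and less RNA per cell cannot be told apart.

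Differences are log2 fold changes with their standard error from edgeR's quasi-likelihood test, and a gene was called where its p, adjusted by Benjamini-Hochberg over all tested genes, was under 0.05. With fasting, 19 of the 31 members were called in control livers, 14 lower and 5 higher, where 8.12% of all tested genes were called, 4.13% lower and 3.99% higher. In knockout livers 15 were called, 13 lower and 2 higher, where 6.14% of all tested genes were called, 3.26% lower and 2.88% higher. The median log2 change of the members was -0.65 in control and -0.36 in knockout livers, and that of all tested genes was 0 and 0.01. Without control fasted replicate 5, the library with the most kidney marker reads of those used, 16 were called in control livers, without control fasted replicate 2 there were 18, and without control fed replicate 3 there were 16. In knockout livers, 18 were called without knockout fasted replicate 4, which stood apart for several members. Called in both genotypes were 14 members, 12 lower and 2 higher, all in the same direction. For 13 members, 10 lower and 3 higher, the fed and fasted control ranges did not overlap, which held for 7.91% of all tested genes, 4.03% lower and 3.87% higher. For 14 members, 12 lower and 2 higher, the fed and fasted knockout ranges did not overlap, which held for 3.97% of all tested genes, 2.15% lower and 1.81% higher. The fall lay in citrate export and use, palmitate synthesis, Scd1 and the transcription factors. The genes called higher in control livers included Elovl5, Elovl2 and Fads2, of polyunsaturated chain elongation and desaturation. Dgat1, of the last step of triglyceride assembly, and Insig2, of the retention of SREBP, were the others. Of these, only Elovl5 and Insig2 were also called higher in knockout livers. As a share of all assigned reads the 32 genes made 0.705 to 0.99% in control fed and 0.538 to 0.603% in control fasted libraries. The share was 0.816 to 1.22% in knockout fed and 0.47 to 0.64% in knockout fasted libraries, and Scd1 alone gave 10.6 to 51.5% of it.

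**Figure D1:**
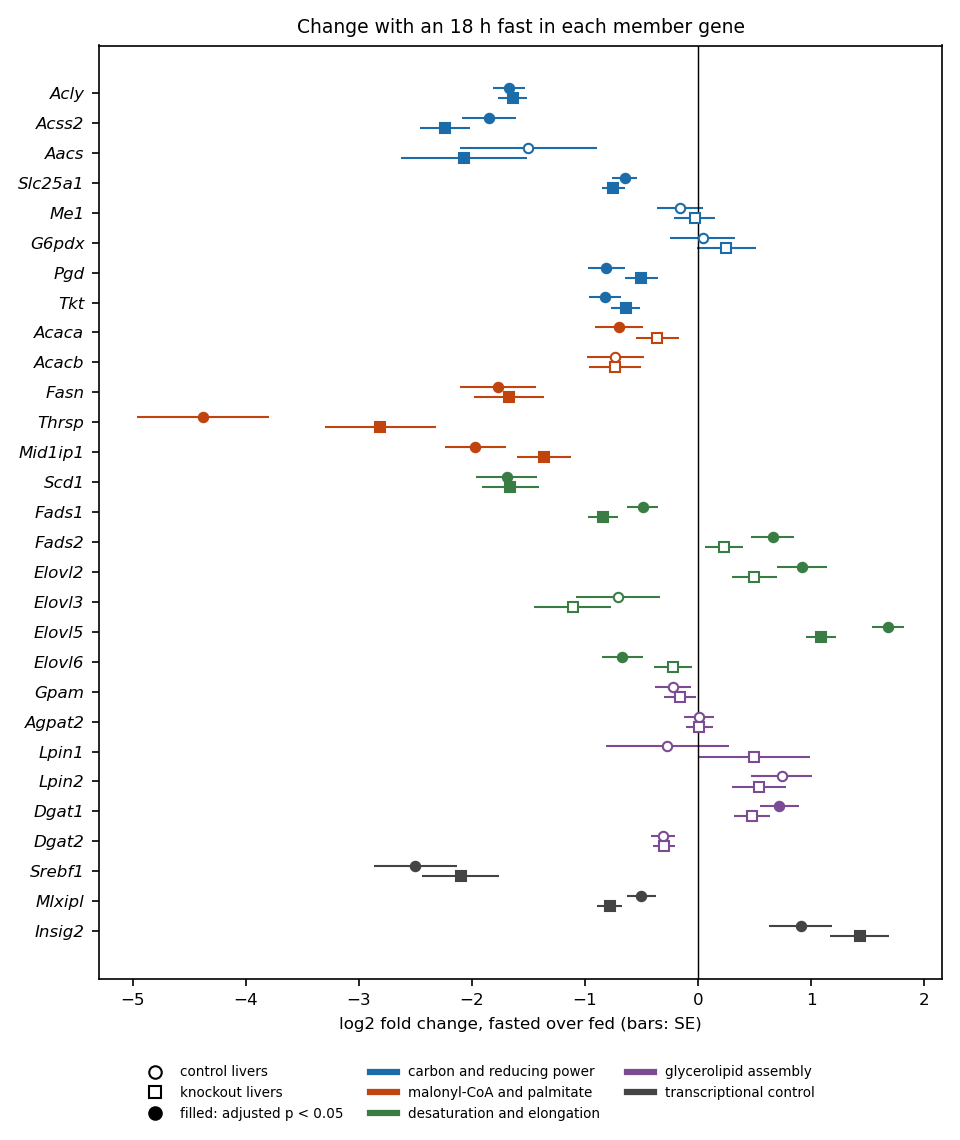
Log2 fold change of each member with fasting (x axis) in control (circles) and knockout livers (squares), with bars of 1 standard error, grouped by role; 29 members are drawn and filled symbols have an adjusted p under 0.05 in edgeR's quasi-likelihood test. Thrsp lies farthest to the left in both genotypes, at -4.38 in control and -2.81 in knockout livers, and Elovl5 at 1.68 and 1.09 is called higher in both.

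To show the sequence in front of genes that moved in opposite directions, the 250 bases before the annotated start are printed for 4 members. They are Acly and Fasn, enzymes that fell, Mlxipl, a transcription factor that fell, and Elovl5. Among the members called in control livers, Elovl5 had the largest rise. Sequences are from RefSeq on GRCm38.p6, read 5′ to 3′ on the gene's own strand. The exons used for counting began further into the gene for Fasn, at chr11:120824178, and for Mlxipl, at chr5:135106891. The printed windows of these genes therefore do not adjoin the counted exons. Acly is chr11:100528001-100528250 on the minus strand, Fasn is chr11:120824548-120824797 on the minus strand, Mlxipl is chr5:135089640-135089889 on the plus strand and Elovl5 is chr9:77917115-77917364 on the plus strand. Capitals mark matches on either strand to a GC box (GGGCGG), an inverted CCAAT box (ATTGG) and an E-box (CACGTG), which reads the same on both strands.
Acly: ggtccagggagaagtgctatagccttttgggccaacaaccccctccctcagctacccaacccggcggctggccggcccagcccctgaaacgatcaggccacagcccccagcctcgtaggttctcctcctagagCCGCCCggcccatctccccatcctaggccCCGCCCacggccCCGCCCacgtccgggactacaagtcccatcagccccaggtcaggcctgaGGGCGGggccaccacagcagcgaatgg
Fasn: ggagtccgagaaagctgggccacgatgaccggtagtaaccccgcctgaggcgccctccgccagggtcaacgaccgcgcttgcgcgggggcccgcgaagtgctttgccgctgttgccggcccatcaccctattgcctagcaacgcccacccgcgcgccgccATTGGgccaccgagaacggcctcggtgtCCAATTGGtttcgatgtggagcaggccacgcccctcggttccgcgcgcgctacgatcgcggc
Mlxipl: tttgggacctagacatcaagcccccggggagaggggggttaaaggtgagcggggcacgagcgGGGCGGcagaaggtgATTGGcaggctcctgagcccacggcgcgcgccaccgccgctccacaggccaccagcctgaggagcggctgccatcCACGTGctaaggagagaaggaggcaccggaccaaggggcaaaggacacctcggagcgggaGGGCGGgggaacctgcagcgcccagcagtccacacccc
Elovl5: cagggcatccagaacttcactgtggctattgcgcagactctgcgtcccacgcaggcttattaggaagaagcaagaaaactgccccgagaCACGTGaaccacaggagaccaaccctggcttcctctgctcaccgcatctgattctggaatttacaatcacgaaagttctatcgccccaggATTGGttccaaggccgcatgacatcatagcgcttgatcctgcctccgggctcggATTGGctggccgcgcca
The Acly window held 4 GC boxes and the Fasn window 3 CCAAT matches, of which a pair on opposite strands overlaps. The Mlxipl window held 1 E-box, 1 CCAAT box and 2 GC boxes, and the Elovl5 window held 1 E-box and 2 CCAAT boxes. Of 27 members with a window in the table, some with several starts, the GC box was in at least 1 window of 18, the CCAAT box of 15 and the E-box of 5 (Elovl5, Lpin2, Mlxipl, Pnpla5 and Slc25a1). Counted by window, 21 of the 38 member windows held the GC box, 16 the CCAAT box and 5 the E-box. Over all 32851 windows of this length, 32.7% held the GC box, 33.8% the CCAAT box and 6.02% the E-box. A sterol regulatory element written as TCACNCCAC was in a window of 1 member, at a second start of Mlxipl, and in 1.05% of all windows. At this second start the counted Mlxipl exons begin, and its window, which is not printed, held no E-box, CCAAT box or GC box. The DR1 element, a direct repeat bound by PPAR factors, was in a window of 0 members and in 0.0335% of all windows. These are matches of letters in one short window and not measured binding sites.

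Of 8 genes that supply carbon and reducing power, 5 were called lower with fasting in control livers (Acly, Acss2, Slc25a1, Pgd and Tkt) and 6 in knockout livers (the same 5 and Aacs), and 0 were called higher in either. Acly, ATP citrate lyase, which splits exported citrate to acetyl-CoA, was at 314, 292, 344, 280 and 386 CPM in control fed replicates 1 to 5. It was at 117, 130, 82.8, 78.5 and 102 CPM in control fasted replicates 1, 2, 3, 5 and 6. Fed and fasted livers did not overlap, and Acly was 3.17-fold lower in fasted controls (log2 change -1.67 ± 0.14, edgeR adjusted p = 6.94e-10). In knockout livers Acly had a low of 296, a median of 315 and a high of 400 CPM when fed, and 87.2, 103 and 138 CPM when fasted. The fall was 3.11-fold without overlap (-1.64 ± 0.13, adjusted p = 2.33e-10), and the fasting change differed between genotypes by 0.03 (95% interval -0.36 to 0.42). Slc25a1, the mitochondrial citrate carrier upstream of Acly, was at 361, 323, 281, 322 and 297 CPM in control fed and 231, 183, 197, 194 and 207 CPM in control fasted libraries. It had a low of 267, a median of 298 and a high of 342 CPM in knockout fed and 144, 177 and 217 CPM in knockout fasted libraries. By value its fall was smaller than that of Acly, at -0.65 ± 0.11 in control (adjusted p = 0.00015) and -0.75 ± 0.10 in knockout livers (adjusted p = 3.88e-06), with no overlap in either.

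Acss2, the cytosolic acetyl-CoA synthetase that activates acetate, was at 376, 169, 182, 262 and 168 CPM in control fed and 63.7, 83.2, 61.2, 49 and 63.2 CPM in control fasted libraries. In knockout libraries its low, median and high were 160, 303 and 369 CPM when fed and 41.6, 59.7 and 74.5 CPM when fasted. Every fasted library was below every fed one, and the fall was 3.61-fold in control (-1.85 ± 0.24, edgeR adjusted p = 1.93e-05) and 4.71-fold in knockout livers (-2.24 ± 0.22, adjusted p = 5.3e-07). Aacs, acetoacetyl-CoA synthetase, which turns a ketone body back into a lipid precursor, was at 74.8, 47.7, 91.5, 50.2 and 38.8 CPM in control fed and 49.5, 32, 3.48, 11.8 and 10.6 CPM in control fasted libraries. Control fasted replicates 1 and 2 were well above the other fasted controls, replicate 1 reached into the fed range, and the control difference of -1.50 ± 0.61 was not called (adjusted p = 0.161). It was called by limma voom with sample weights (-1.88, adjusted p = 0.0165) and with a random block for clusters of title numbers (-2.12, adjusted p = 0.006). Knockout fed libraries spanned 42.4 to 166 CPM around a median of 56.5, knockout fasted libraries 5.68 to 33.9 around 17.2. The ranges were apart and Aacs fell (-2.07 ± 0.56, adjusted p = 0.0326), but the call ended without any one of knockout fed replicates 1 and 4 and knockout fasted replicates 2, 3, 5 and 6 (adjusted p 0.0502 to 0.0944).

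In the pentose phosphate pathway, which regenerates NADPH, Tkt and Pgd fell while the first enzyme, G6pdx, was not called. Tkt, transketolase, was at 186, 191, 172, 131 and 171 CPM in control fed and 87.5, 101, 108, 80.8 and 104 CPM in control fasted libraries, with no overlap (-0.82 ± 0.14, edgeR adjusted p = 0.000107). In knockout livers the low, median and high were 115, 142 and 180 CPM fed and 67.9, 96.2 and 120 CPM fasted, overlapping at the edge (-0.64 ± 0.13, adjusted p = 0.000908). Pgd, 6-phosphogluconate dehydrogenase, was at 56.8, 45.3, 61.3, 43.8 and 55.4 CPM in control fed and 31.5, 42.6, 24.6, 27.4 and 24.2 CPM in control fasted libraries. It fell in control livers without overlap (-0.81 ± 0.16, adjusted p = 0.00102), although control fasted replicate 2 came within little of the lowest fed library. Knockout values ran from 37.1 through a median of 39.9 to 49.6 CPM fed and from 22 through 26.5 to 44.7 CPM fasted, with knockout fasted replicate 4 alone inside the fed range. The knockout change of Pgd (-0.50 ± 0.15, adjusted p = 0.0386) lost its call without any one of knockout fed replicates 2, 4, 5 and 6 or knockout fasted replicates 1, 2, 3, 5 and 6 (adjusted p 0.0552 to 0.113). G6pdx, glucose-6-phosphate dehydrogenase, was low throughout, at 2.11 to 7.71 CPM over the 22 libraries, with changes of 0.04 ± 0.29 in control and 0.25 ± 0.26 in knockout livers. Me1, the cytosolic malic enzyme and another NADPH source, lay at 62.2 to 128 CPM in control fed and 70.9 to 115 in control fasted libraries, and at 53.1 to 123 and 68 to 108 CPM in knockout libraries. Its differences of -0.16 ± 0.20 in control and -0.03 ± 0.18 in knockout livers were not called (adjusted p 0.759 and 0.981).

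For malonyl-CoA and palmitate, 4 of 5 members were called lower in control livers and 3 of 5 in knockout livers, and 0 were called higher. Thrsp, whose product Spot 14 promotes lipid synthesis in liver, had the largest fall among the called members. It was at 191, 136, 428, 112 and 412 CPM in control fed and 12.7, 25.5, 4.85, 8.93 and 10.3 CPM in control fasted libraries. Even the highest fasted control was several-fold below the lowest fed control, and Thrsp was 20.8-fold lower (-4.38 ± 0.58, edgeR adjusted p = 5.27e-05). Knockout libraries had a low of 44.4, a median of 137 and a high of 194 CPM fed and 6.32, 16.7 and 36.3 CPM fasted. These were also apart, but knockout fed replicate 3 at 44.4 CPM and knockout fasted replicate 3 at 36.3 CPM lay close to each other, and the fall was 7.02-fold (-2.81 ± 0.49, adjusted p = 0.000989). Mid1ip1, which encodes a close relative of Spot 14 that activates acetyl-CoA carboxylase, was at 36.5, 24.1, 53.4, 28.1 and 92.1 CPM in control fed and 13.8, 13.8, 7.87, 10.4 and 14 CPM in control fasted libraries. Its knockout low, median and high were 22.6, 29.2 and 34.5 CPM fed and 8.48, 11.4 and 13.8 CPM fasted. With no overlap in either genotype, Mid1ip1 fell 3.93-fold in control (-1.97 ± 0.27, adjusted p = 2.35e-05) and 2.58-fold in knockout livers (-1.36 ± 0.24, adjusted p = 0.000574).

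Fasn, fatty acid synthase, which builds palmitate from malonyl-CoA, was at 749, 456, 723, 298 and 955 CPM in control fed and 277, 293, 110, 110 and 143 CPM in control fasted libraries. Control fed replicate 4 at 298 CPM stood just above control fasted replicate 2 at 293 CPM, so the ranges touched without overlapping while the fall was 3.41-fold (-1.77 ± 0.34, edgeR adjusted p = 0.00201). Knockout libraries were further apart, with a low of 416, a median of 559 and a high of 753 CPM fed and 102, 185 and 223 CPM fasted (3.18-fold lower, -1.67 ± 0.31, adjusted p = 0.00169). Acaca, acetyl-CoA carboxylase 1, which makes the cytosolic malonyl-CoA for synthesis, was at 88.1, 77.3, 98.1, 66.2 and 86.1 CPM in control fed and 60.3, 68.9, 41.2, 44.4 and 40.8 CPM in control fasted libraries. The ranges overlapped through control fasted replicate 2, and the fall of Acaca (-0.70 ± 0.21, adjusted p = 0.0367) lost its call without any one of control fed replicates 1, 2, 3 and 5 and control fasted replicates 3, 5 and 6 (adjusted p 0.0516 to 0.104). In knockout livers Acaca had a low of 82, a median of 93.2 and a high of 98.4 CPM fed and 48.1, 60 and 134 CPM fasted, and the change of -0.36 ± 0.19 was not called (adjusted p = 0.389). The 134 CPM belonged to knockout fasted replicate 4, and without that library Acaca was called lower in knockout livers (-0.63 ± 0.13, adjusted p = 0.00155). Acacb, acetyl-CoA carboxylase 2, whose malonyl-CoA restrains mitochondrial fatty acid uptake, had the same difference of -0.73 in both genotypes (SE 0.25 in control, 0.23 in knockout livers). It ran from 86 to 131 CPM in control fed and 43.4 to 96.2 CPM in control fasted libraries, and from 52.1 to 136 and 39.5 to 72.9 CPM in knockout libraries. Neither difference was called (adjusted p 0.0809 and 0.062), and the ranges overlapped in both genotypes. The control difference of Acacb was called without control fasted replicate 2 (-0.90, adjusted p = 0.0264) and without knockout fed replicate 3 (adjusted p = 0.0375), and the knockout one without control fasted replicate 2 or 6 or knockout fed replicate 3 (adjusted p 0.011 to 0.0482).

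**Figure D2:**
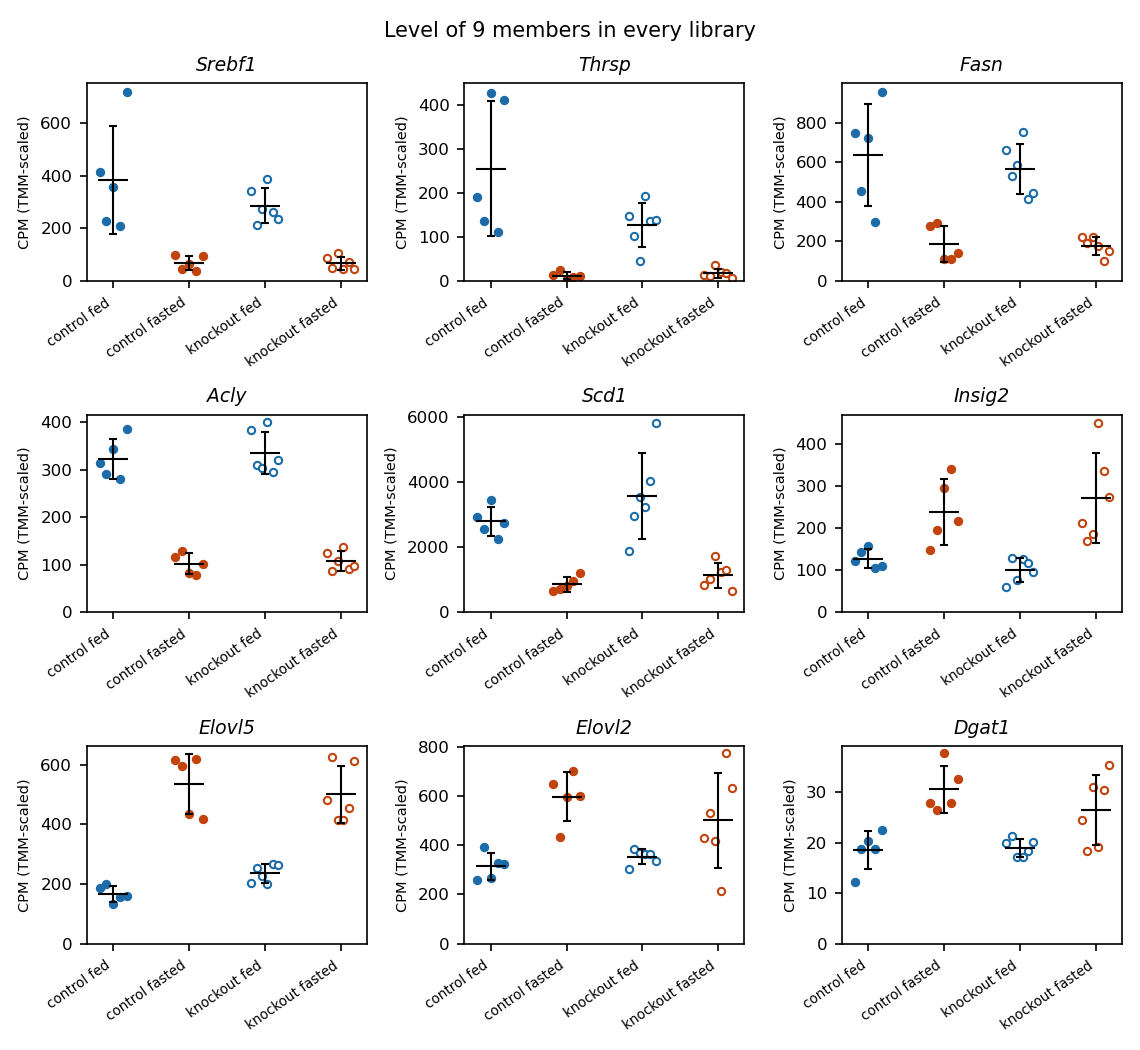
CPM on a linear axis of 9 members in each library, by group. Fed libraries are blue and fasted ones red, filled for control and open for knockout. Bars give the mean ± SD over 5 control or 6 knockout libraries. Srebf1, Thrsp, Fasn, Acly and Scd1 show fasted libraries below all fed ones in both genotypes, and Elovl5 shows the reverse.

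Desaturation and elongation members moved in both directions: 3 rose and 3 fell of 7 in control livers, and 1 rose and 2 fell in knockout livers. Scd1, stearoyl-CoA desaturase 1, which makes oleate and palmitoleate, was at 2940, 2570, 3460, 2270 and 2760 CPM in control fed and 649, 704, 800, 955 and 1220 CPM in control fasted libraries. Its low, median and high in knockout libraries were 1880, 3390 and 5820 CPM fed and 651, 1140 and 1720 CPM fasted. Fasting lowered Scd1 without overlap by 3.23-fold in control (-1.69 ± 0.27, edgeR adjusted p = 0.000303) and 3.15-fold in knockout livers (-1.66 ± 0.25, adjusted p = 0.00015). Scd2 and Scd3, close paralogs in the same gene cluster, fell as well (-1.44 ± 0.26 and -1.68 ± 0.31 in control livers, adjusted p = 0.00028 and 0.000293), and reads that fit several of these genes may be placed with uncertainty. Elovl6, which lengthens palmitate to stearate, was at 54.7, 49.3, 56.5, 34.3 and 68.2 CPM in control fed and 30.7, 41.9, 24.3, 34.5 and 33.8 CPM in control fasted libraries. Elovl6 fell in control livers with overlapping ranges (-0.67 ± 0.18, adjusted p = 0.0177), a call that ended without control fed replicate 5 (adjusted p = 0.0686) and likewise without control fasted replicate 3 (adjusted p = 0.0627). In knockout livers its values of 29 to 63.3 CPM fed and 32.1 to 51.8 CPM fasted gave -0.22 ± 0.17, which was not called (adjusted p = 0.645). Elovl3, which acts on saturated and monounsaturated chains, was at 94.4 to 256 CPM in control fed and 71.4 to 176 CPM in control fasted libraries. It was not called in control livers (-0.71 ± 0.37, adjusted p = 0.313). In knockout livers Elovl3 gave -1.11 ± 0.34, which missed the threshold (adjusted p = 0.0647) and was called without knockout fed replicate 3 (-1.25, adjusted p = 0.0335).

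In the polyunsaturated branch the called members other than Fads1 rose. Elovl5, which lengthens C18 and C20 polyunsaturated chains, was at 187, 201, 134, 155 and 160 CPM in control fed and 615, 595, 434, 618 and 418 CPM in control fasted libraries. Each fasted control was above every fed control, and Elovl5 rose 3.2-fold (1.68 ± 0.14, edgeR adjusted p = 6.94e-10). The knockout low, median and high were 199, 241 and 268 CPM fed and 415, 468 and 627 CPM fasted, again apart, for a 2.13-fold rise (1.09 ± 0.13, adjusted p = 3.29e-07). Elovl2, which takes the longer polyunsaturated chains further, was at 257, 392, 267, 329 and 323 CPM in control fed and 647, 435, 595, 701 and 601 CPM in control fasted libraries. It rose 1.9-fold in control livers without overlap (0.92 ± 0.22, adjusted p = 0.00821). In knockout livers Elovl2 had a low of 303, a median of 364 and a high of 385 CPM fed and 214, 482 and 774 CPM fasted, and the change of 0.50 ± 0.20 was not called (adjusted p = 0.177). The 214 CPM was again knockout fasted replicate 4, without which Elovl2 was called higher (0.66 ± 0.14, adjusted p = 0.00159). Fads2, the delta-6 desaturase, was at 287, 312, 230, 257 and 283 CPM in control fed and 670, 426, 358, 294 and 415 CPM in control fasted libraries. Control fasted replicate 1 was far above the rest and replicate 5 was inside the fed range. The rise of Fads2 (0.66 ± 0.19, adjusted p = 0.0265) lost its call without control fasted replicate 1 (0.45, adjusted p = 0.0991), control fed replicate 3 (0.0785) or control fed replicate 4 (0.0665). Knockout values of 302, 316 and 340 CPM fed and 186, 393 and 456 CPM fasted gave 0.23 ± 0.17 (adjusted p = 0.624).

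Fads1, the delta-5 desaturase encoded near Fads2, did not follow it. Its control fed values were 507, 452, 423, 500 and 400 CPM and its control fasted values 448, 288, 288, 292 and 304 CPM. Control fasted replicate 1 lay within the fed range while the other fasted controls were near 290 CPM, and Fads1 was lower (-0.49 ± 0.14, edgeR adjusted p = 0.0267). That call ended without any one of control fed replicates 1 and 4 and control fasted replicates 2, 3, 5 and 6 (adjusted p 0.0629 to 0.0803). Knockout livers showed it without overlap, at a low of 484, a median of 510 and a high of 535 CPM fed and 171, 281 and 395 CPM fasted (-0.84 ± 0.13, adjusted p = 4.08e-05).

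Glycerolipid assembly was the role with the fewest called members, 1 higher and 0 lower of 8 tested in control livers by edgeR. In knockout livers edgeR called 0 of 8, where 3 had an unadjusted p under 0.05. Of all tested genes 8.12% were called in control and 6.14% in knockout livers, so these counts are near the share of all genes. Dgat1, a diacylglycerol acyltransferase of the last step that re-esterifies incoming fatty acids, was at 12.3, 18.7, 20.4, 18.8 and 22.6 CPM in control fed and 27.9, 26.6, 37.9, 28 and 32.6 CPM in control fasted libraries. Dgat1 rose 1.65-fold in control livers without overlap (0.72 ± 0.17, edgeR adjusted p = 0.00473). In knockout livers it had a low of 17.1, a median of 19.1 and a high of 21.4 CPM fed and 18.3, 27.4 and 35.5 CPM fasted. That difference of 0.48 ± 0.16 missed the threshold (adjusted p = 0.0628) and passed it without control fed replicate 1 (adjusted p = 0.0421), knockout fasted replicate 2 (0.0225) or knockout fasted replicate 4 (0.0249). Dgat2, the enzyme of the same step that is linked to newly made fatty acids, was at 402 to 521 CPM in control fed and 303 to 446 CPM in control fasted libraries. Dgat2 gave -0.31 ± 0.11 in control (adjusted p = 0.0812) and -0.30 ± 0.10 in knockout livers (adjusted p = 0.0784), where the ranges of 429 to 536 CPM fed and 335 to 429 CPM fasted just failed to overlap. Neither was called, and the control one was called without control fasted replicate 1 (-0.39, adjusted p = 0.0342). Per kilobase of transcript, as RPKM, Dgat2 was at 204 ± 21.9 (SD, n = 5) and Dgat1 at 6.07 ± 1.26 in control fed livers, so the gene that rose was the rarer transcript. In control fasted livers the levels were 164 ± 24.8 and 10 ± 1.54 RPKM.

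Earlier steps of glycerolipid assembly showed no called change. Gpam, glycerol-3-phosphate acyltransferase 1, was at 120 to 192 CPM in control fed and 121 to 177 CPM in control fasted libraries (-0.22 ± 0.16, edgeR adjusted p = 0.512), and at 129 to 256 and 134 to 199 CPM in knockout livers (-0.16 ± 0.14). Agpat2, which adds the second acyl chain, had 182 to 238 CPM in control fed and 179 to 227 CPM in control fasted libraries, with 0.01 ± 0.13 in control and 0.01 ± 0.12 in knockout livers. Lpin1, a phosphatidate phosphatase, had the widest range among the fed controls of the members of this role with reads in every library, 6.43-fold: 71.9, 462, 77.2, 150 and 93.3 CPM in control fed and 156, 314, 95.4, 90.3 and 55.8 CPM in control fasted libraries. Replicate 2 was highest in both control groups, where replicate numbers are only names, and the differences of -0.27 ± 0.54 in control and 0.50 ± 0.49 in knockout livers were not called. Without control fed replicate 2 the control difference of Lpin1 turned to 0.54 (adjusted p = 0.631). Lpin2, the main lipin of liver, was at 190, 485, 134, 287 and 144 CPM in control fed and 462, 486, 370, 480 and 273 CPM in control fasted libraries. With control fed replicate 2 as high as the fasted controls, Lpin2 gave 0.74 ± 0.27 in control (adjusted p = 0.103) and 0.54 ± 0.24 in knockout livers (adjusted p = 0.259). Without control fed replicate 2, Lpin2 was called higher in control livers at 1.14 (adjusted p = 0.00012) and in knockout livers at 0.54 (adjusted p = 0.0318). The knockout difference itself did not move. Only its standard error fell, from 0.24 to 0.16, as the 4 groups share 1 estimate of the spread. With only the knockout groups in the fit, edgeR called Lpin2 higher there (0.54 ± 0.11, adjusted p = 0.00461). Mogat1, a monoacylglycerol acyltransferase, and Pnpla3, a lipid droplet acylhydrolase known as a lipogenic target, each had reads in 13 of the 22 libraries and at most 42 reads in any. Pnpla3 was at 0 reads in 4 of 5 control fasted libraries, and no fold is given for either gene.

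Transcriptional control carried called changes in all 3 members in both genotypes. Srebf1 was at 413, 227, 358, 209 and 716 CPM in control fed and 98.2, 45.3, 65.6, 36.6 and 94.6 CPM in control fasted libraries. The fed controls differed among themselves by 3.43-fold, yet the lowest was above every fasted control, and Srebf1 was 5.65-fold lower (-2.50 ± 0.37, edgeR adjusted p = 0.000193). Knockout libraries had a low of 213, a median of 269 and a high of 389 CPM fed and 43.6, 59.2 and 107 CPM fasted, apart by 4.3-fold (-2.10 ± 0.34, adjusted p = 0.000408). Counts per gene do not separate the SREBP-1a and SREBP-1c transcripts. Mlxipl was at 353, 262, 296, 322 and 329 CPM in control fed and 229, 197, 214, 191 and 270 CPM in control fasted libraries, overlapping through control fed replicate 2 and control fasted replicate 6 (-0.50 ± 0.13, adjusted p = 0.00716). Its knockout low, median and high were 281, 319 and 351 CPM fed and 135, 194 and 216 CPM fasted, with no overlap (-0.78 ± 0.11, adjusted p = 1.18e-05). By value, Mlxipl fell less than Srebf1 in both genotypes.

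Insig2, which holds the SREBP escort complex in the endoplasmic reticulum and has a fasting-induced liver transcript, went the other way. It was at 123, 143, 157, 106 and 110 CPM in control fed and 148, 195, 296, 341 and 216 CPM in control fasted libraries. Control fasted replicate 1 at 148 CPM was inside the fed range, and the rise of 1.87-fold was at the threshold (0.91 ± 0.28, edgeR adjusted p = 0.0493). The call ended when any control library other than control fasted replicate 1 was left out, and also without any one of knockout fed replicates 2, 4, 5 and 6 or knockout fasted replicates 1, 5 and 6 (adjusted p 0.0509 to 0.139). The knockout rise was 2.7-fold, from a low of 60.4, a median of 106 and a high of 129 CPM fed to 170, 244 and 450 CPM fasted (1.43 ± 0.26, adjusted p = 0.00107). Its sister gene Insig1, an SREBP target chosen here after its values were seen, was called lower in knockout livers (-2.17 ± 0.40, adjusted p = 0.0017) and gave -1.26 ± 0.43 in control livers, which was not called (adjusted p = 0.0834). Before scaling for depth, control fasted replicate 1 held 13359 reads of Insig1, within the 8546 to 17639 of the control fed libraries. The other control fasted libraries held 2588 to 3684 reads, and the control change without replicate 1 was not examined. The difference of Insig1 between genotypes was -0.91 (95% interval -2.11 to 0.29).

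**Figure D3:**
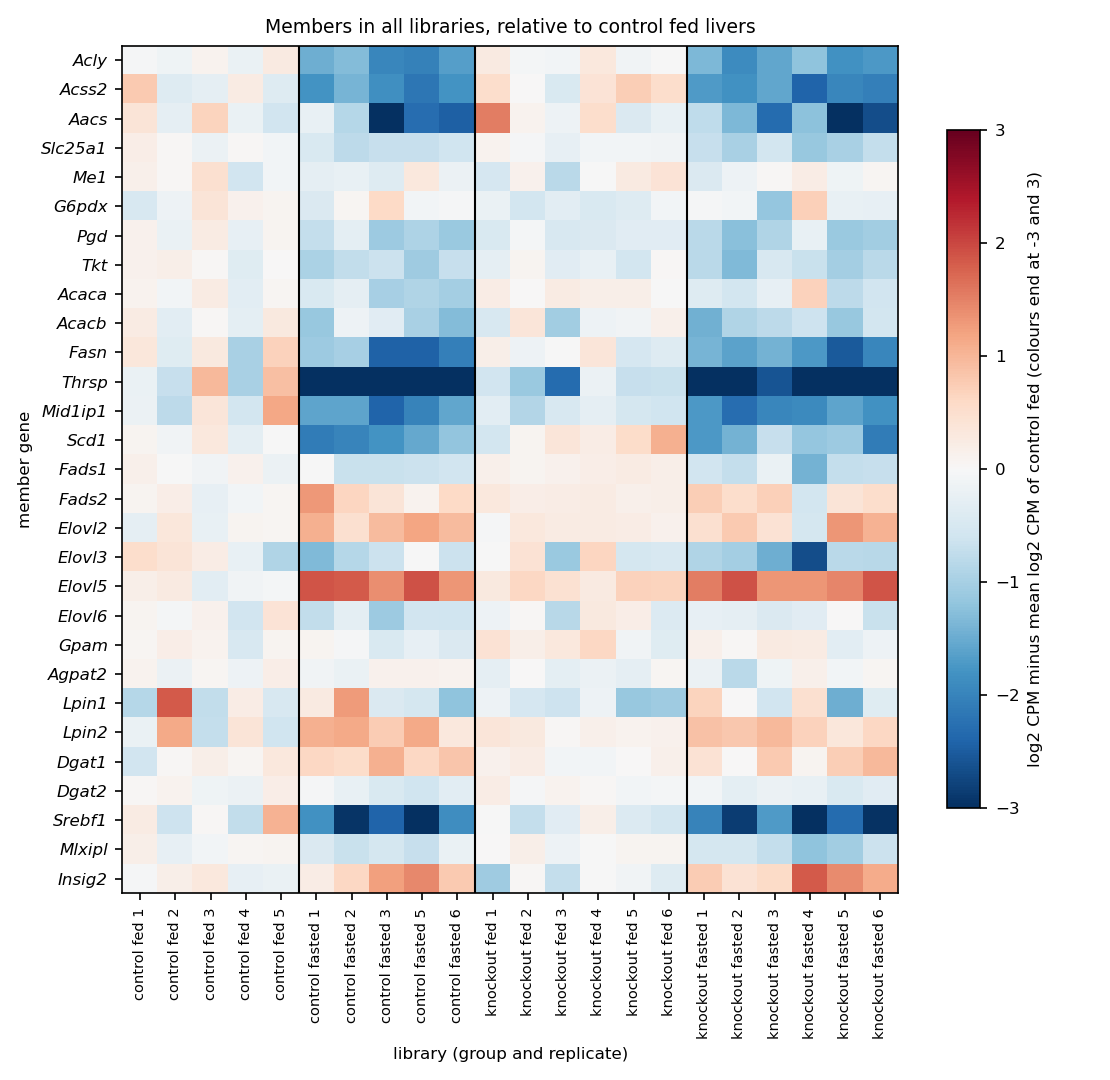
Heatmap of log2 CPM of each member in each of the 22 libraries, minus the mean log2 CPM of that member in control fed libraries, with colours ending at -3 and 3. Fasted columns are below the control fed mean for Srebf1, Thrsp, Fasn, Acly, Acss2 and Scd1 and above it for Elovl5, and knockout fasted replicate 4 departs from its group for Acaca, Fads2 and Elovl2.

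Fed livers differed widely among themselves for one part of the set and little for another. Highest over lowest control fed level was 3.82 for Thrsp and for Mid1ip1, 3.43 for Srebf1 and 3.2 for Fasn, against 1.28 for Slc25a1, 1.38 for Acly and 1.52 for Scd1. Lpin1 and Lpin2 were widely spread as well, each highest in control fed replicate 2, and Lpin1 more so than Thrsp. The control fed libraries fell in the same order for Srebf1 and for Fasn, with replicate 5 highest, then 1, 3, 2 and 4. Control fed replicate 4 was the lowest of its group for 13 of 31 members and the highest for 0, and replicate 5 was the highest for 10. Among knockout fed libraries the spread was smaller for Srebf1 (1.82) and Fasn (1.81), similar for Thrsp (4.38) and larger for Scd1 (3.1). Replicate 4 was highest and replicate 1 next for Srebf1, Fasn and Thrsp in this group, whereas for Scd1 these replicates were not the highest, replicate 6 leading at 5820 CPM and replicate 1 being lowest. Knockout fed replicate 3 was the lowest of its group for 11 members.

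Compared per kilobase, the levels changed order with feeding state. In control fed livers Scd1 led at 579 ± 91.6 RPKM (SD, n = 5), followed by Dgat2 at 204 ± 21.9, Thrsp at 200 ± 120 and Fads2 at 182 ± 20.6, where the last 3 did not differ beyond their spread. In control fasted livers Fads2 was at 287 ± 94.8, Scd1 at 179 ± 47.6, Dgat2 at 164 ± 24.8, Elovl2 at 155 ± 25.8 and Elovl5 at 152 ± 28.7 RPKM, the last 4 within their spread of each other. Thrsp had dropped to 9.77 ± 6.13 RPKM. Fasn was at 64.6 ± 26.3 and Acly at 61.2 ± 8.11 RPKM in control fed livers and at 19 ± 9.24 and 19.3 ± 4.13 RPKM in control fasted livers, a pair at about the same level in either state. Acaca, by contrast, was low at 5.49 ± 0.794 RPKM in control fed and 3.37 ± 0.841 RPKM in control fasted livers.

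Loss of Gpt2 called 0 of the 31 members in fed livers and 0 in fasted livers by edgeR, where 0.00597% of all tested genes were called in each, the 1 gene being Gpt2 (-2.61 ± 0.19 fed and -2.64 ± 0.19 fasted, adjusted p = 1.55e-08 and 1.23e-08). At an unadjusted p under 0.05 there were 4 members in fed and 3 in fasted livers, and DESeq2 and limma voom also called 0. The member ranges of the genotypes overlapped for 31 of 31 in both states, while 1.18% of all tested genes in fed and 0.489% in fasted livers did not overlap. The median log2 difference of the members, knockout minus control, was 0.01 in fed and -0.07 in fasted livers. For the main enzymes the intervals were of unequal width. In fed livers the 95% interval of the log2 difference was -0.22 to 0.33 for Acly, -0.29 to 0.14 for Slc25a1 and -0.18 to 0.25 for Dgat2. It was wider for Scd1, at -0.18 to 0.89, for Fasn, at -0.83 to 0.49, and for Srebf1, at -1.13 to 0.29, where a difference of moderate size was not detectable with these libraries. In fasted livers the intervals were -0.19 to 0.36 for Acly, -0.73 to 0.59 for Fasn, -0.14 to 0.92 for Scd1 and -0.75 to 0.68 for Srebf1.

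The 4 members with an unadjusted p under 0.05 in fed livers were Elovl5, Mid1ip1, Pgd and Thrsp. Elovl5 was at 134 to 201 CPM in control and 199 to 268 CPM in knockout fed libraries, touching only at control replicate 2, for a difference of 0.49 ± 0.14 (95% interval 0.22 to 0.77, unadjusted p = 0.000958, edgeR adjusted p = 0.213). Mid1ip1 was lower by value in knockout fed libraries (-0.67 ± 0.25, 95% interval -1.18 to -0.16, adjusted p = 0.406), with 22.6 to 34.5 CPM against 24.1 to 92.1 in controls. Thrsp gave -1.01 ± 0.48 (95% interval -2.02 to -0.01, adjusted p = 0.553), and control replicates 3 and 5, at 428 and 412 CPM, were the ones above all knockout fed libraries. Pgd gave -0.36 ± 0.16 (adjusted p = 0.472). In fasted livers the 3 were Acaca (0.48 ± 0.20, adjusted p = 1), Mlxipl (-0.25 ± 0.12, adjusted p = 1) and Pnpla3, which had too few reads for a fold. Knockout fasted replicate 4, at 134 CPM, was the highest for Acaca. None of these passed the correction.

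**Figure D4:**
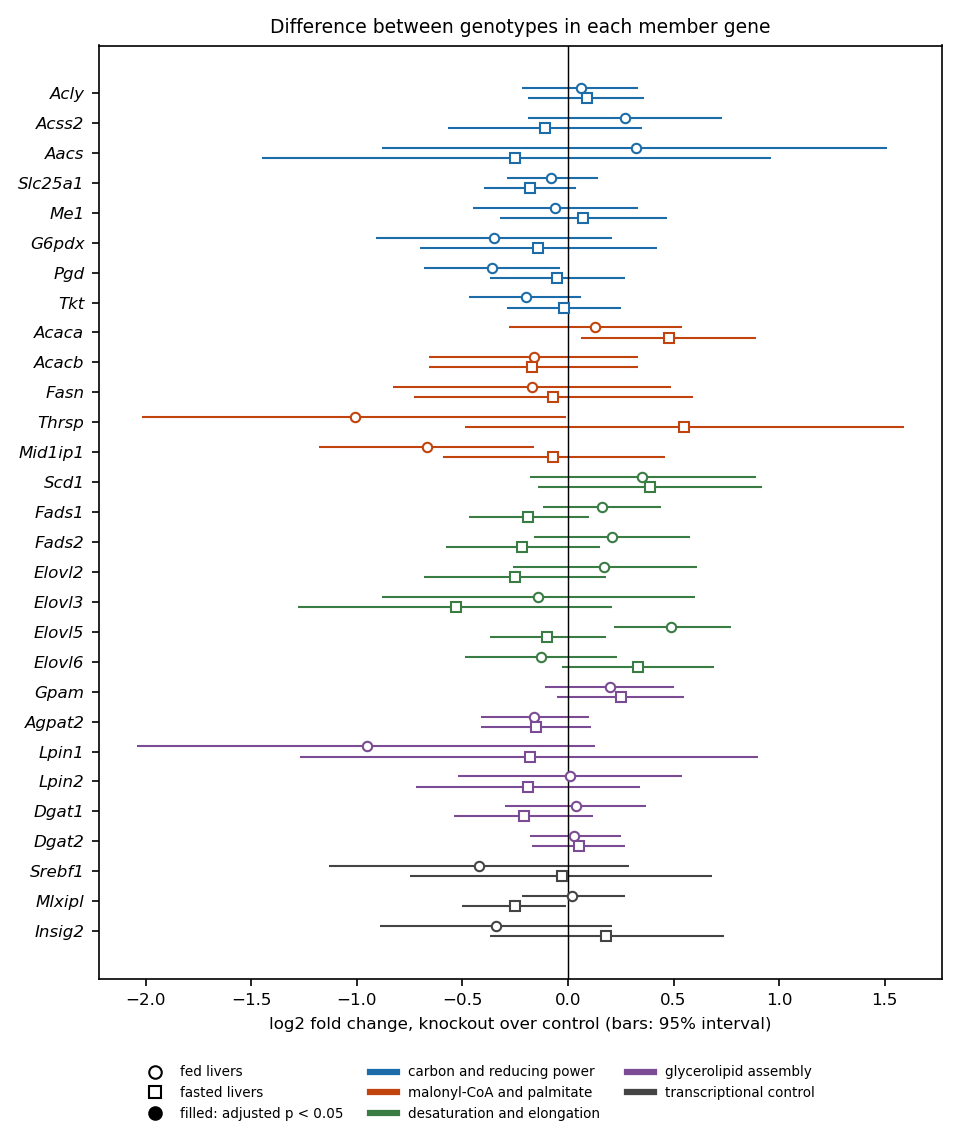
Log2 difference between knockout and control livers of each drawn member in fed and in fasted livers (x axis), with 95% intervals; filled symbols would mark an adjusted p under 0.05 and none is filled. Intervals are narrow for Acly, Slc25a1 and Dgat2 and wide for Thrsp, Aacs and Lpin1.

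Whether fasting acted differently by genotype was tested as an interaction, the fasting change in knockout minus that in control livers. It called 0 of 31 members by edgeR, where 0.00597% of all tested genes were called, and 3 had an unadjusted p under 0.05; DESeq2 and limma voom also called 0. Elovl5 rose less in knockout livers by value, with an interaction of -0.59 ± 0.19 (95% interval -0.98 to -0.20, unadjusted p = 0.00402, adjusted p = 0.977). The fed level of Elovl5 was higher in knockout livers, at 235 ± 30.8 CPM (SD, n = 6) against 167 ± 26.5 (n = 5), and the fasted levels were 501 ± 95 and 536 ± 101 CPM. Thrsp had an interaction of 1.57 ± 0.69 (95% interval 0.12 to 3.01, adjusted p = 1), and Pnpla3 was the third. For Acly the interval was -0.36 to 0.42, for Scd1 -0.71 to 0.79, for Fasn -0.84 to 1.03 and for Srebf1 -0.62 to 1.4. The 5 members called in control livers alone (Acaca, Elovl6, Fads2, Elovl2 and Dgat1) and the 1 called by edgeR in knockout livers alone (Aacs) had interactions that were not called (adjusted p = 1 for each).

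Of 79 other genes of the pathway 77 were tested, and edgeR called 7 higher and 8 lower with fasting in control and 7 higher and 10 lower in knockout livers, with median log2 changes of -0.07 and 0.03. In acyl-CoA activation and glycerolipid assembly 5 of 17 were called higher and 0 lower in control, and 5 higher and 2 lower in knockout livers. Acsl1, which activates long-chain fatty acids for storage or oxidation, was at 669, 778, 721, 760 and 604 CPM in control fed and 1970, 1940, 2380, 2250 and 1770 CPM in control fasted libraries (1.55 ± 0.12, adjusted p = 1.09e-10; 1.15 ± 0.10 in knockout livers, adjusted p = 3.46e-09). Mgll, which cleaves monoacylglycerol, rose by 1.59 ± 0.16 in control and 1.53 ± 0.15 in knockout livers (adjusted p = 4.46e-08 and 1.5e-08). Agpat3, an acyltransferase of phospholipid and triglyceride synthesis, rose by 0.79 ± 0.10 and 0.80 ± 0.09 (adjusted p = 1.01e-06 and 1.56e-07). Gpat3, a microsomal glycerol-3-phosphate acyltransferase, rose by 2.23 ± 0.36 in control livers from a low level, 1.51 to 3.15 CPM fed against 4.96 to 16.2 fasted (adjusted p = 5.03e-05). In knockout livers Hacd3, a dehydratase of the elongation cycle, rose by 0.88 ± 0.13 (adjusted p = 1.39e-05). The acyltransferases Agpat3 and Gpat3 were thus called higher in both genotypes, while Gpam, Agpat2 and Dgat2 were not called in either.

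Among the remaining lists, carbon and reducing power had 1 higher and 3 lower of 12 in each genotype, and desaturation and elongation 1 higher and 4 lower of 13 in each. Palmitate and mitochondrial fatty acid synthesis had 0 called of 7 in each by edgeR, with 2 at an unadjusted p under 0.05. Transcriptional and kinase control, which holds SREBP processing, liver X receptor, AMPK and insulin signalling genes, had 0 higher and 1 lower of 28 in each. Over all tested genes, 8.12% were called with fasting in control and 6.14% in knockout livers. By genotype and by interaction 0 of the 77 were called, with 7, 2 and 4 at an unadjusted p under 0.05 in fed livers, fasted livers and the interaction.

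Some markers of other cells also moved with fasting. Stellate cell markers summed to 106 to 142 CPM in control fed and 63.6 to 116 CPM in control fasted libraries, and to 126 to 159 and 83 to 133 CPM in knockout libraries, with Col3a1 lower in both genotypes. The exocrine pancreas list summed to 27.2 to 37.7 CPM in control fed and 3.43 to 8.48 CPM in control fasted libraries, 1 of its 6 genes, Cela1, being tested and lower, and the others at most 0.428 CPM except Ctrb1 at 7.85 CPM in control fed replicate 3. Cholangiocyte markers summed to 27.7 to 60.1 CPM in control fed and 17.7 to 34.4 CPM in control fasted libraries. The 60.1 CPM was control fed replicate 3, which held 628 reads of Krt19. Of the 5 tested genes of this list, 1 was called lower in control and 0 in knockout livers. By genotype, sinusoidal endothelium markers summed to 121 to 186 CPM in control fed and 178 to 274 CPM in knockout fed libraries. Kupffer cell and macrophage markers summed to 87.6 to 110 CPM in control fasted and 96.2 to 210 CPM in knockout fasted libraries. By edgeR 0 genes of either list were called by genotype in either state. At an unadjusted p under 0.05 were 4 of 6 endothelial genes in fed and 3 in fasted livers, with all 6 higher by value in knockout livers in both. For the Kupffer list it was 1 of 8 in fed livers, with 7 higher by value, and 6 in fasted livers, with all 8 higher. The part of these cells in the members' changes was not tested.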

How the data were processed

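Polyadenylated liver RNA was sequenced, per the labels (oligo-dT). Per the submitters' processing notes the authors made read counts per gene with bcl2fastq, STAR 2.5.1a and Subread featureCounts 1.4.6-p5 on GRCm38. Neither the annotation release nor the counting strand is given in the sources used here. Reads where genes overlap are therefore uncertain. The deposited counts entered every test. Symbols came from GENCODE M21 and matched 40254 genes (97.3%). Groups came from the titles and labels, and the replicates were numbered in accession order, so the numbers pair nothing.

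The test was the quasi-likelihood F test of edgeR 4.0.16 (R 4.3.3, glmQLFit with robust estimation, then glmQLFTest), with TMM factors, filterByExpr by group (minimum count 10, minimum total 15) and 1 fit of the 4 groups without covariates. The call threshold was 0.05 on the p adjusted by Benjamini-Hochberg over 16757 genes. No 2 libraries of a group were duplicates: over 50 pairs the chi-square per degree of freedom was 37.4 to 323 at 20 or more reads. The members and lists were chosen with earlier results of these data known. Members called in at least 1 contrast are given per library in control livers and by range, mostly with a median, in knockout livers. Other members are given by range, except Lpin1 and Lpin2, whose control levels are given per library. Other pathway genes are given by the 4 smallest p per contrast among those called, and Scd2, Scd3 and Insig1 were named outside this rule.

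On simulated counts for fasting in control livers (16098 genes), 11.9%, 44.8% and 72.7% of genes changed 1.5-, 2- and 4-fold were recovered, and 2.27% of calls were false. Changed were 67, 67 and 66 genes, and those removed by the filter count as not recovered. The real contrast called 1360 genes. The adjustment is stricter where few genes change, so these shares do not carry over to the real test. Alternatives were other scaling, filters, DESeq2 1.42.0, limma 3.58.1 voom, only the groups compared, a random block for clusters of title numbers, the kidney-like library kept, and each library left out.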

Additional observations from a re-analysis of the deposited data

Results flagged for a closer look

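In 10 of 124 sets of a member and a group, the highest or lowest library lay far from the others of its group for the group's range. Chance alone gives about 1 in 20 for normally distributed values. Whether CPM follow that distribution was not tested, so this rate is no firm yardstick here. Knockout fasted replicate 4 was such a library for 3 members: Acaca was at 134 CPM there, Pgd at 44.7 CPM, both the highest of 6, and Fads2 at 186 CPM, the lowest of 6. This library correlated with its own group at a mean r of 0.935 across genes, within the 0.92 to 0.944 of the group's libraries. The other 7 sets lay in 7 libraries. Aacs was at 166 CPM in knockout fed replicate 1, and Pgd at 49.6 CPM in knockout fed replicate 2, each the highest of 6. Lpin1 was at 462 CPM in control fed replicate 2, the highest of 5, and Gpam at 120 CPM in control fed replicate 4, the lowest of 5. Fads1 was at 448 CPM in control fasted replicate 1 and Me1 at 115 CPM in control fasted replicate 5, each the highest of 5. Pnpla3 was at 0.0241 CPM, 1 read, in control fasted replicate 6, where the other 4 control fasted libraries had 0 reads. Any read in such a set is flagged.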

How the results depend on the processing

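Of 34 called member changes with fasting, 21 were called under all 31 alternatives (22 that each left out a library and 9 others), 27 under all but the one that keeps the kidney-like library, and 0 reversed. Leaving out 1 library gave 15 to 20 members called in control and 13 to 18 in knockout livers. Other settings gave 16 to 22 in control livers (lowest with the filter of at least 1 count in any library, 22 with voom or the block) and 14 to 19 in knockout livers (19 with DESeq2). With the kidney-like library kept, 13 and 10 members and 805 and 379 of all genes were called, against 1360 and 1029 without it. Lost then were, in control livers, Acaca, Fads1, Fads2, Pgd, Elovl2, Insig2 and Elovl5 (1.43, adjusted p = 0.0513), and in knockout livers Aacs, Pgd, Fads1, Insig2 and Elovl5 (1.09, adjusted p = 0.192). Of members not called, some passed under another test or filter: in control livers Aacs (voom, block), Acacb (DESeq2, voom, block), Lpin2 (voom, block) and Pnpla3 (DESeq2). In knockout livers they were Acacb and Elovl3 (DESeq2, block and others), Dgat2 (DESeq2, voom, library totals), Acaca (voom), Dgat1 (DESeq2) and Lpin2 (only the groups compared). Calls lost were Insig2 in control livers with library totals (adjusted p = 0.0692), and with the filter of at least 1 count Acaca, Fads2 and Insig2 in control (0.0777, 0.0829 and 0.0847) and Aacs in knockout livers (0.0508). Genotype and interaction counts of members were 0 throughout; over all genes DESeq2 called 68 in fed and 3 in fasted livers and 6 for the interaction. Scaling moved the median of all genes by under 0.1. The block correlation of 10 title-number clusters was -0.0128. No paired analysis was possible because the labels give the groups no shared replicate numbers. Depth limits Mogat1, Pnpla3, Pnpla5 and G6pdx.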
